A study of Mus musculus with 4 samples.

Results

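The genes described here are the 33 genes of glucose uptake, glycolysis, lactate handling and the pentose phosphate branch, with the transcription factor Hif1a, among the 17039 genes of a mouse T cell RNA sequencing table. They were chosen by symbol from knowledge of the pathway, with earlier results of these data known. All 33 were found in the table and passed the filter on low counts. Splenic T cells, which the series title calls CD8+, came from 4 C57BL/6 mice kept under specific-pathogen-free conditions. In the AAV-IL-27 group, 2 mice had received in muscle a recombinant adeno-associated virus (AAV) that expresses the cytokine interleukin-27 (IL-27). In the AAV-ctrl group, 2 mice had received a control recombinant virus by the same route. T cells were separated by magnetic sorting about a month later, and each library comes from its own animal. The labels do not name the promoter that drives IL-27 or the cargo of the control virus, and every mouse carried a virus.

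Glycolysis splits glucose into pyruvate in the cytosol. Glucose enters through transporters of the Slc2a family, is trapped as glucose 6-phosphate by hexokinase, committed to breakdown by phosphofructokinase, and turned into pyruvate in the steps from Gapdh to Pkm, which also yield ATP. Pyruvate is either reduced to lactate and exported or taken into mitochondria and oxidised, while the pentose phosphate branch diverts glucose 6-phosphate into NADPH and ribose for nucleotides. T cells that are activated and divide are known for a high rate of glycolysis with lactate release, and resting T cells for a low one.

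Of the 33 genes, 21 were higher and 1 was lower in the T cell samples of AAV-IL-27 mice, which also held transcripts of other cells. The other 11 did not pass the test (edgeR quasi-likelihood test, two-sided, adjusted over all 12887 genes tested, threshold 0.05). Of these 33 genes 63.6% were called higher and 3.03% lower, against 21.3% and 17.7% of all tested genes, of which 39% were called in either direction. Their median log2 fold change was 0.38, while that of all tested genes was -0.01. The genes that rose covered each step from hexokinase to lactate export, and neither glucose transporter passed. By step, 0 of 2 uptake genes, 7 of 11 genes of upper glycolysis, 5 of 7 of lower glycolysis, 4 of 6 of the pyruvate and lactate group and 4 of 6 of the pentose phosphate branch rose. Together the 33 genes held 0.649% and 0.657% of all counts in the AAV-IL-27 libraries, against 0.460% and 0.462% in AAV-ctrl libraries. Values of a pair of libraries are given as replicate 1 and then replicate 3.

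**Figure D1:**
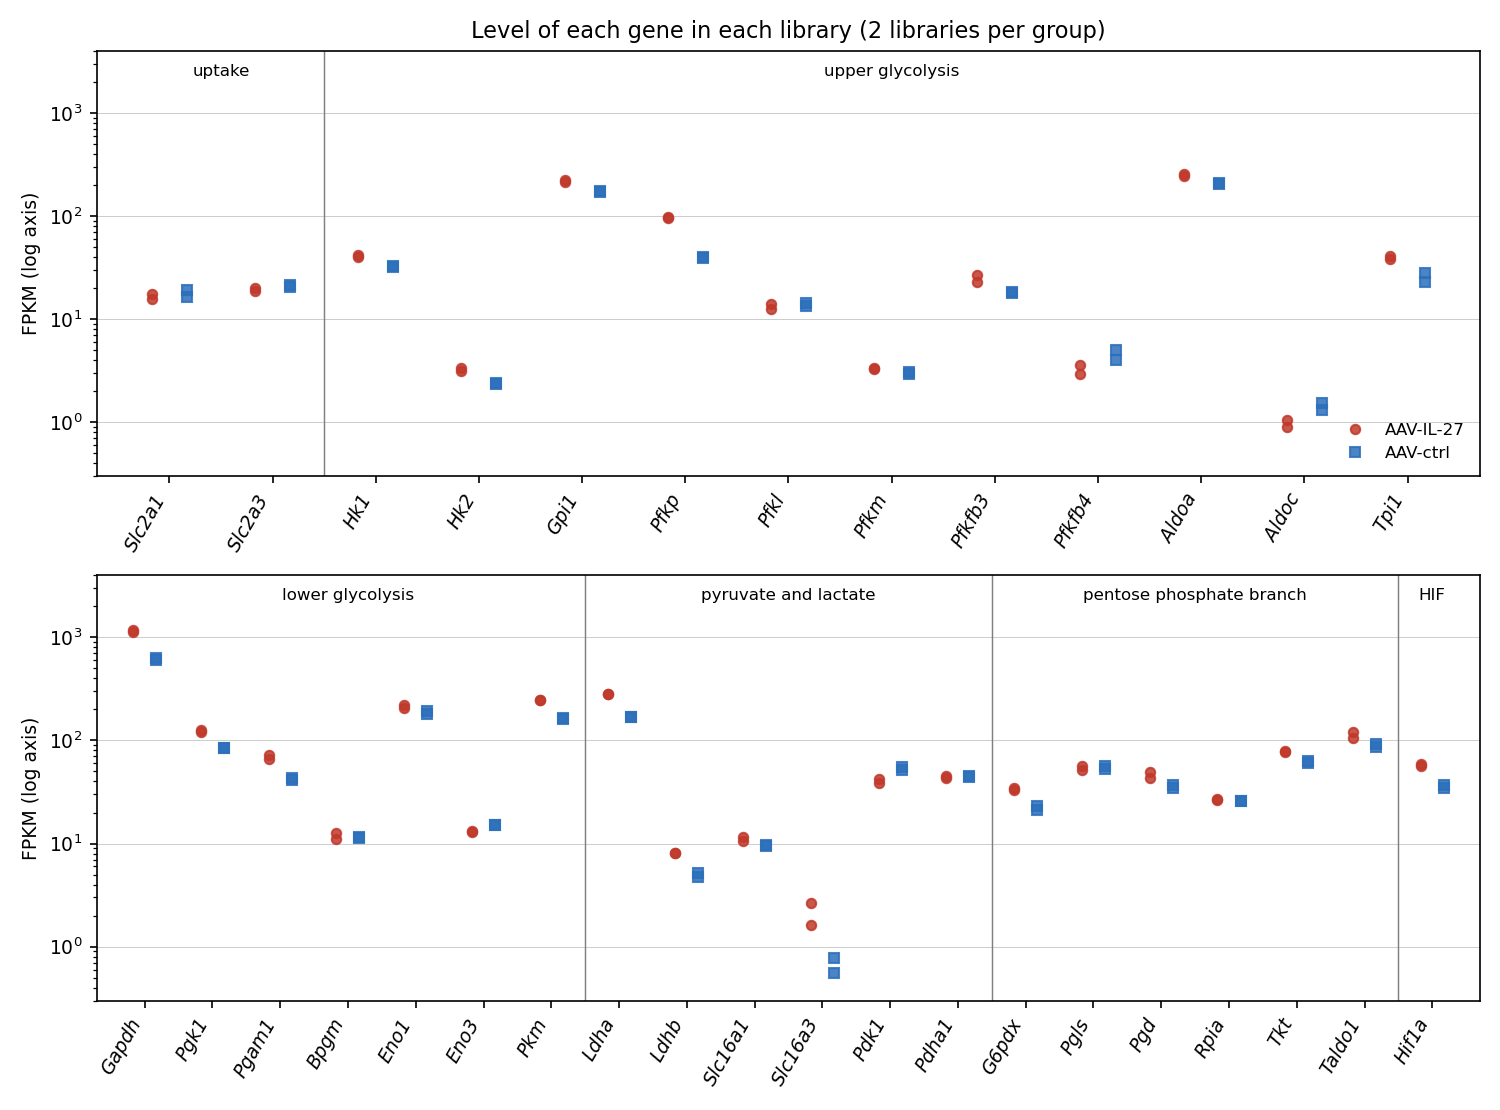
Level of each of the 33 genes in FPKM (a count per gene length and per library size, on a log axis) in each library, AAV-IL-27 as circles and AAV-ctrl as squares, in pathway order. Gapdh is highest, at 1114 and 1187 FPKM in AAV-IL-27 libraries against 607 and 631 FPKM in AAV-ctrl libraries, and the markers of the uptake genes of both groups lie close together.

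The libraries held 15742476 to 16182426 counts, and the T cell identity of the samples was checked with 17 marker genes, all of them measured. These held 0.711% and 0.629% of the counts in AAV-IL-27 libraries and 0.629% and 0.643% in AAV-ctrl libraries. Other cells left transcripts too, and fewer cells of a type cannot be told apart from less RNA per cell in such bulk samples. Of 16 neutrophil markers 14 were higher, with a median log2 fold change of 5.73 and a summed share of 0.0882% and 0.144% of the counts in AAV-IL-27 libraries against 0.00558% and 0.00451% in AAV-ctrl libraries. Of those 16, Prtn3 and Cebpe were at 0 in AAV-ctrl replicate 3. All 12 cell cycle genes were higher, with a median of 1.93 and summed shares of 0.143% and 0.149% against 0.0399% and 0.0380%. Markers of B cells (5 of 10 lower, none higher, with shares of 0.193% and 0.264% against 0.411% and 0.366%) were lower in AAV-IL-27. Among the cell types other than T cells they held the largest share in every library, of the same order as the T cell markers in AAV-ctrl. Markers of red pulp macrophages (7 of 11 lower, none higher, 0.00959% and 0.0117% against 0.0397% and 0.0241%) were lower in AAV-IL-27 as well. Of 7 natural killer cell markers 5 were lower and 2, Klrc1 and Gzma, higher, with a median log2 fold change of -2.55. Their summed shares were 0.0166% and 0.0147% against 0.0189% and 0.0176%. Gzma weighed most in these shares, with 1912 and 1553 expected counts in AAV-IL-27 libraries against 1034 and 896 in AAV-ctrl libraries. Of the erythroid markers 1 of 9 tested was called, with shares of 0.00322% and 0.00519% against 0.00671% and 0.00398%. Of 7 platelet markers 6 were found among the genes measured and only 1 was tested, and it was higher, with shares of 0.000567% and 0.000546% against 0.000378% and 0.000394%. The part of any of these cells in the changes below was not tested.

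The stretches around the start sites of 6 genes are shown because these genes mark the range of behaviour in the family. Pfkp, Gapdh, Ldha and Slc16a3 are among the largest rises, Slc2a1 did not pass, and Pdk1 is the only gene that fell. Each window runs from 250 bases before to 50 bases after a RefSeq start (GRCm38.p6), 5′ to 3′ on the gene's strand. Capitals mark ACGTG and GCGTG on either strand, the core letters of the element that hypoxia-inducible factors bind.
Pfkp (chr13:6648722-6649021, - strand): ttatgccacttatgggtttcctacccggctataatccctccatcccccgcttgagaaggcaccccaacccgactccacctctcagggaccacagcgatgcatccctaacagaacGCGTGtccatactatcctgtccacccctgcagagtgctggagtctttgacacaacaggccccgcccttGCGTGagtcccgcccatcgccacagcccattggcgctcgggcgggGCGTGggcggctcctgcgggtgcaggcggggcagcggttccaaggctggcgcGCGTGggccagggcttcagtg
Gapdh (chr6:125165724-125166023, - strand): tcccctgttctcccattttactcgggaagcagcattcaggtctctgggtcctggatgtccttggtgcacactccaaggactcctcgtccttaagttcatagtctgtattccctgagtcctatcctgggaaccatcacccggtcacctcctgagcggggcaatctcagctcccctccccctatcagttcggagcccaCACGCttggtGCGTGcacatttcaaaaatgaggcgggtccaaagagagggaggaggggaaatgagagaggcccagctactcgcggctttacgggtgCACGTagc
Ldha (chr7:46845554-46845853, + strand): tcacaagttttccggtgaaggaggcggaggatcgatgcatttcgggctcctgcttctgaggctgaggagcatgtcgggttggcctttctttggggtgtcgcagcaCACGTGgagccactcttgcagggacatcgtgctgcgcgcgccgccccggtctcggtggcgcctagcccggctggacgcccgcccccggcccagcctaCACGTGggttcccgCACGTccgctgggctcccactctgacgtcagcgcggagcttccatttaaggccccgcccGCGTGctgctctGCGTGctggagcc
Slc16a3 (chr11:120948817-120949116, + strand): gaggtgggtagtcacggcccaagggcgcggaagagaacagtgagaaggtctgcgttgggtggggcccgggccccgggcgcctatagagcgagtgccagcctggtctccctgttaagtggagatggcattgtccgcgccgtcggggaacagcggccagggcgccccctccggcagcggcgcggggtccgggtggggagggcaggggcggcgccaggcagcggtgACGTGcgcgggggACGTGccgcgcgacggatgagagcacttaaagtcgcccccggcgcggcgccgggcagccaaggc
Slc2a1 (chr4:119108495-119108794, + strand): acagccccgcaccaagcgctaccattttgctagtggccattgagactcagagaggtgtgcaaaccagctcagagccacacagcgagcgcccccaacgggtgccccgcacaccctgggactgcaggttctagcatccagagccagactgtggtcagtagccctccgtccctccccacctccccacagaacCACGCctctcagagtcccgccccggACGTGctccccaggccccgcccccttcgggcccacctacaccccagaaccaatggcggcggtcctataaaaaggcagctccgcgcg
Pdk1 (chr2:71872974-71873273, + strand): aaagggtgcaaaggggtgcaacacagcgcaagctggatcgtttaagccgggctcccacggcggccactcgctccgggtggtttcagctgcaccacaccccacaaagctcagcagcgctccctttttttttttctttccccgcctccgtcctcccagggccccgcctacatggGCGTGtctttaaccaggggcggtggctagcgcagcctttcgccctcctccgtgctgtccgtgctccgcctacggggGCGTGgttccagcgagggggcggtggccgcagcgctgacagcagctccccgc
All 6 windows hold at least 1 such core, including those of Slc2a1, which did not pass, and of Pdk1, which fell. Of the 32 genes with a window (46 windows in all), 16 held ACGTG and 23 held GCGTG, and 29 held either. Among the promoters of the tested genes 28.7% of genes held ACGTG, 54.1% held GCGTG and 65.6% held either, and among all RefSeq promoters 21.8%, 35.2% and 46.7% did. A gene was counted if any of its windows matched, and the tested genes had 13076 windows for 10278 genes. Per window the shares were 41.3%, 60.9% and 80.4% for the 46 windows, against 24.8%, 48.5% and 59.9% for those of tested genes. Of the genes called higher 13 of 21 held ACGTG, of those that did not pass 3 of 10, and the gene that fell did not hold it in either of its windows. GCGTG was found in 13 of 21, 9 of 10 and 1 of 1, and either core in 19 of 21, 9 of 10 and 1 of 1. The E-box CACGTG, whose letters contain ACGTG on both strands, was found in 5 of the 32 genes, Ldha with 2 copies and Hif1a among them, against 11.5% of the tested genes. The STAT element TTCNNNGAA was found in 2 of the 32, Aldoc and Pfkm, against 8.52% of the tested genes. A match is a run of letters and no evidence of binding, and no count of matches was tested.

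Transcripts of the glucose transporters did not differ between the groups past the threshold. Slc2a1, which encodes GLUT1, the main glucose carrier of activated T cells, had 17.6 and 15.7 FPKM in AAV-IL-27 libraries, against 19.3 and 16.3 FPKM in AAV-ctrl libraries. The groups overlapped, and its log2 fold change was -0.05 ± 0.098 (SE, adjusted p = 0.726), with a sign that turned without AAV-IL-27 replicate 3 (0.03) or AAV-ctrl replicate 1 (0.08). Slc2a3, which encodes GLUT3, a carrier of high affinity, had 20.3 and 18.6 FPKM in AAV-IL-27 libraries, against 20.6 and 21.6 FPKM in AAV-ctrl libraries (log2 fold change -0.09 ± 0.063, adjusted p = 0.282). Slc2a1 made up 46.5% and 45.9% of the FPKM of the pair in AAV-IL-27 libraries, and 48.4% and 43.0% in AAV-ctrl libraries, so neither carrier dominated in either group.

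Hexokinase transcripts were higher. Hk1, the hexokinase of most resting tissues, had 42.0 and 40.3 FPKM in AAV-IL-27 libraries, against 32.5 and 32.1 FPKM in AAV-ctrl libraries (log2 fold change 0.40 ± 0.049, adjusted p = 0.000262). Hk2, the inducible hexokinase of growing cells, had 3.13 and 3.39 FPKM in AAV-IL-27 libraries, against 2.35 and 2.38 FPKM in AAV-ctrl libraries. It rose by 0.51 ± 0.10 (adjusted p = 0.00449), and not past the threshold without AAV-ctrl replicate 1 (adjusted p = 0.0528). Hk1 stayed the main form, with Hk2 at 6.94% and 7.76% of their summed FPKM in AAV-IL-27 libraries and 6.74% and 6.90% in AAV-ctrl libraries. Gpi1, which converts glucose 6-phosphate to fructose 6-phosphate, had 222 and 215 FPKM in AAV-IL-27 libraries, against 173 in both AAV-ctrl libraries (0.39 ± 0.045, adjusted p = 0.000179).

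The second-largest fold change, and the largest at a high level, was that of Pfkp (NCBI Gene 56421, chromosome 13, 6579874 to 6649060), the platelet-type subunit of phosphofructokinase, the committing step of glycolysis. It had 97.8 and 96.4 FPKM in AAV-IL-27 libraries, against 40.1 and 39.4 FPKM in AAV-ctrl libraries. The groups lay far apart and the libraries of a group close together, and the log2 fold change was 1.24 ± 0.048 (adjusted p = 2.24e-07), a 2.36-fold difference. The liver-type subunit Pfkl had 12.6 and 14.0 FPKM in AAV-IL-27 libraries, against 13.3 and 14.2 FPKM in AAV-ctrl libraries (log2 fold change -0.00 ± 0.079, adjusted p = 0.972). Its sign turned without AAV-IL-27 replicate 1 (0.08) or AAV-ctrl replicate 3 (0.05). The muscle-type subunit Pfkm had 3.39 and 3.26 FPKM in AAV-IL-27 libraries, against 2.93 and 3.05 FPKM in AAV-ctrl libraries (0.20 ± 0.14, adjusted p = 0.267). Summed over the 3 subunits, phosphofructokinase stood at 114 FPKM in both AAV-IL-27 libraries, against 56.3 and 56.6 FPKM in AAV-ctrl libraries. The make-up of the pool therefore differed, with Pfkp at 86.0% and 84.8% in AAV-IL-27 libraries and 71.2% and 69.6% in AAV-ctrl libraries. Pfkl made up 11.1% and 12.3% in AAV-IL-27 libraries, against 23.6% and 25.1% in AAV-ctrl libraries. The groups did not overlap in these shares, though 2 against 2 libraries allow an exact permutation p of no less than 0.333, so no share was tested.

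**Figure D2:**
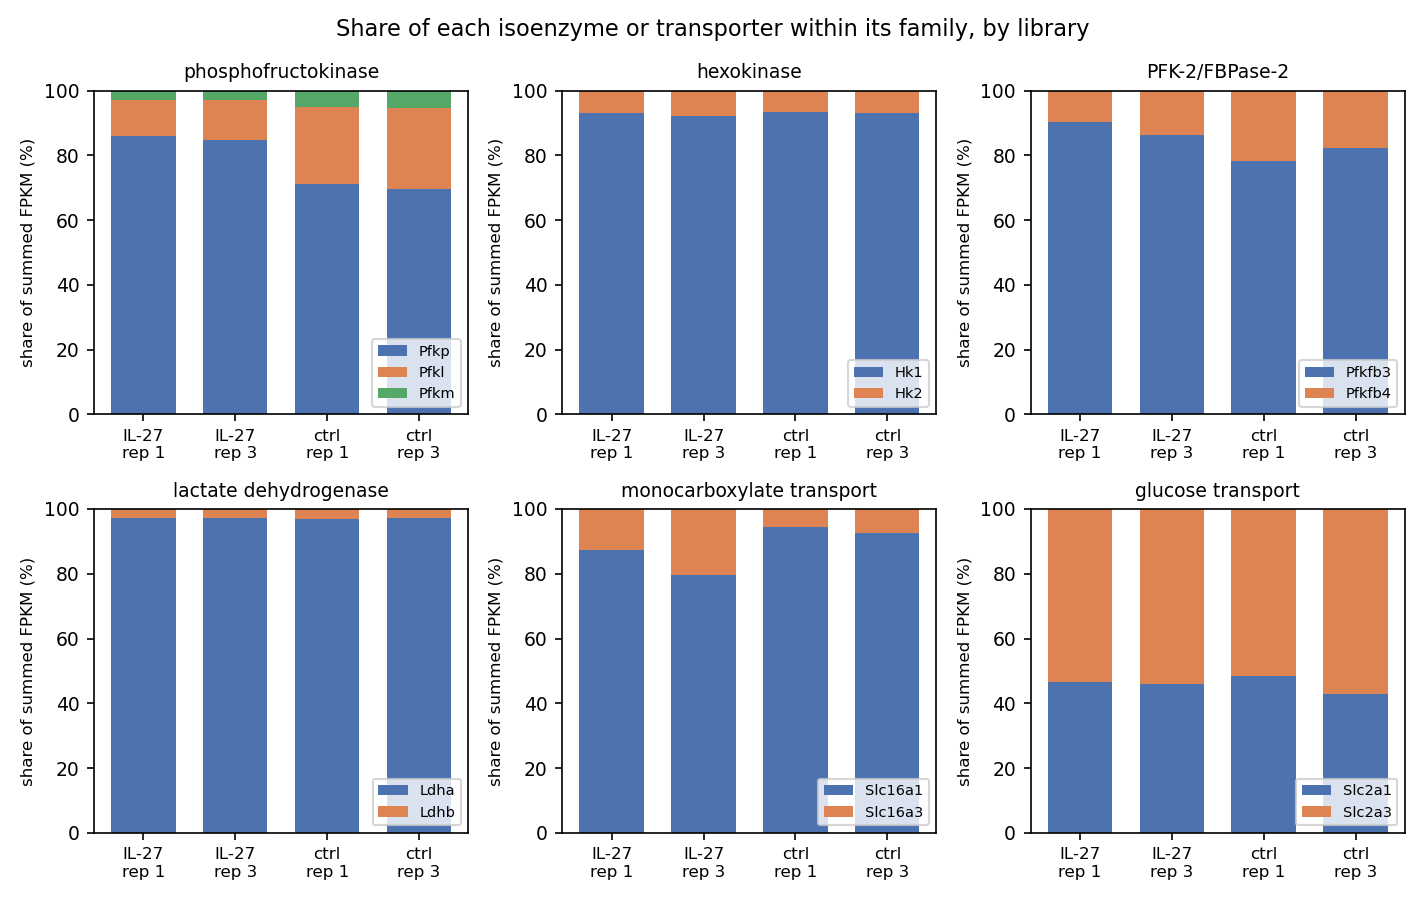
Share of each isoenzyme or transporter in the summed FPKM of its family (percent), 1 bar per library, AAV-IL-27 libraries left of AAV-ctrl libraries. Pfkp takes 84.8% to 86.0% of phosphofructokinase in AAV-IL-27 libraries and 69.6% to 71.2% in AAV-ctrl libraries, while Ldha takes about 97% of lactate dehydrogenase in all 4.

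The enzymes that set the level of fructose 2,6-bisphosphate, the activator of phosphofructokinase, did not move together. Pfkfb3, the form with strong kinase activity, had 27.0 and 22.8 FPKM in AAV-IL-27 libraries, against 18.1 and 18.4 FPKM in AAV-ctrl libraries. It rose by 0.50 ± 0.087 (adjusted p = 0.00349), and not past the threshold without AAV-ctrl replicate 1 (adjusted p = 0.0527). Pfkfb4 had 2.92 and 3.59 FPKM in AAV-IL-27 libraries, against 5.01 and 3.98 FPKM in AAV-ctrl libraries (-0.40 ± 0.16, adjusted p = 0.0799). Pfkfb4 was lower in both AAV-IL-27 libraries. It passed when scaled to the T cell markers (adjusted p = 0.0106) and not by DESeq2 (adjusted p = 0.225). Leaving out 1 library, its log2 fold change ran from -0.59 without AAV-ctrl replicate 3 to -0.18 without AAV-ctrl replicate 1.

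Among the enzymes that split and interconvert the sugar phosphates, Aldoa and Tpi1 were higher. Aldoa, the aldolase of muscle and most dividing cells, had 245 and 254 FPKM in AAV-IL-27 libraries, against 207 and 203 FPKM in AAV-ctrl libraries (0.33 ± 0.047, adjusted p = 0.000553). Aldoc, the brain aldolase, was rare, with 0.90 and 1.06 FPKM in AAV-IL-27 libraries, against 1.55 and 1.32 FPKM in AAV-ctrl libraries (-0.50 ± 0.23, adjusted p = 0.120). Tpi1, triosephosphate isomerase, had 38.0 and 41.3 FPKM in AAV-IL-27 libraries, against 27.9 and 22.8 FPKM in AAV-ctrl libraries (0.70 ± 0.098, adjusted p = 0.000951). The AAV-ctrl libraries differed more from each other than the AAV-IL-27 libraries did in Tpi1, and the groups still did not overlap.

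**Figure D3:**
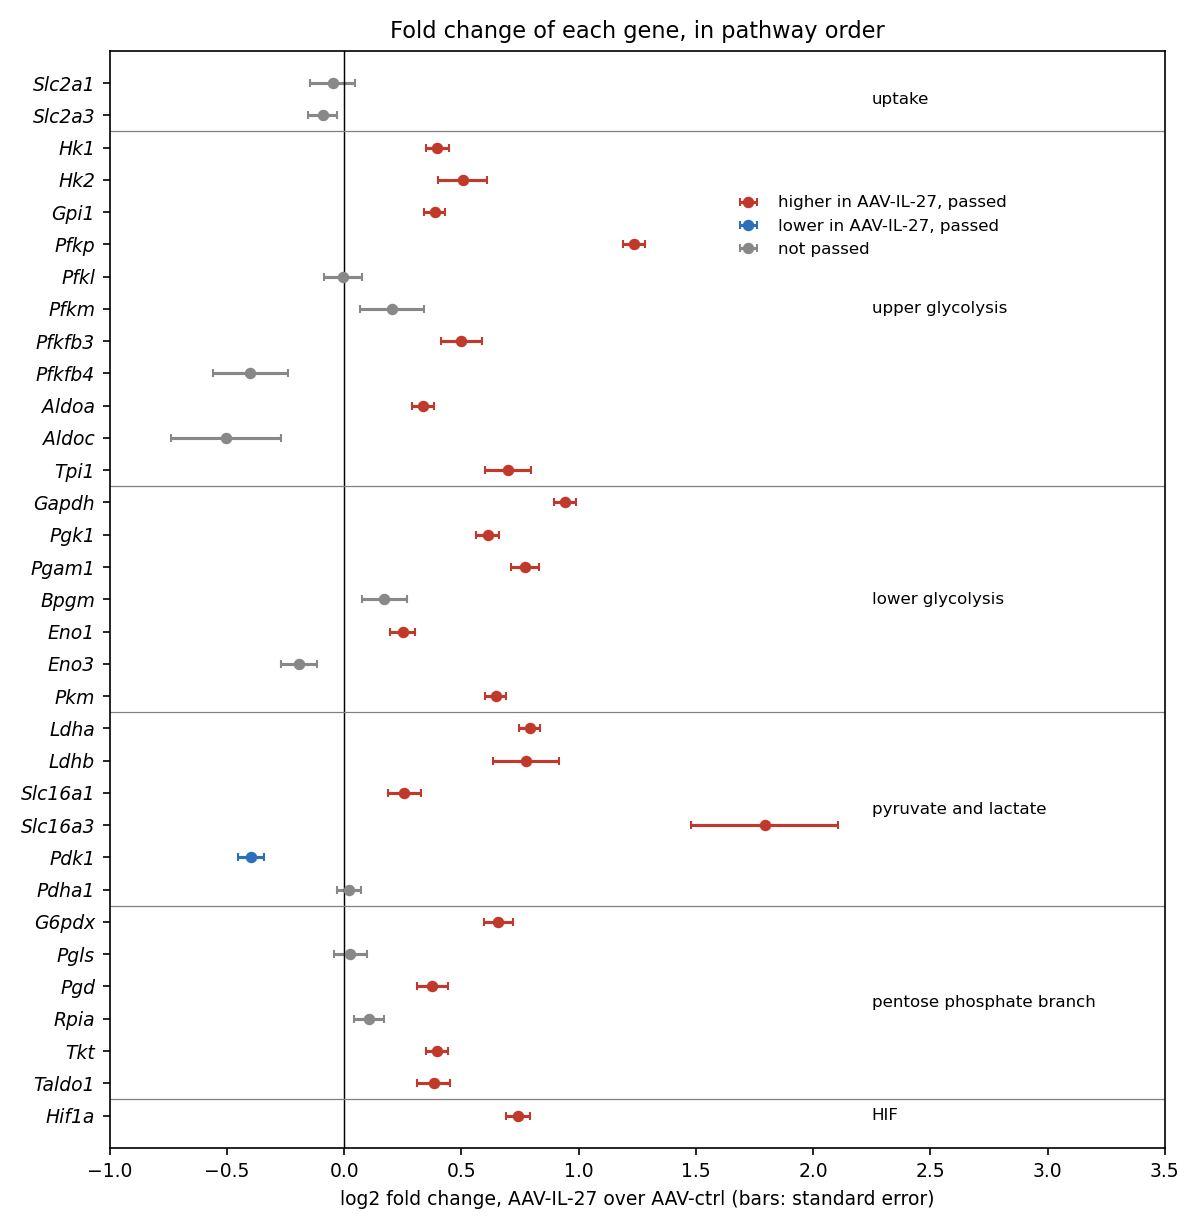
Log2 fold change of each of the 33 genes, AAV-IL-27 over AAV-ctrl, in pathway order from top to bottom, with standard errors as bars. Points in red or blue passed the adjusted threshold of 0.05, 21 of them to the right of 0 and 1, Pdk1, to the left.

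Lower glycolysis had the largest rise in summed level. Its 7 genes summed to 1778 and 1877 FPKM in AAV-IL-27 libraries, against 1111 and 1129 FPKM in AAV-ctrl libraries, a 1.63-fold difference, where upper glycolysis differed 1.34-fold. Gapdh (NCBI Gene 14433, chromosome 6, 125161852 to 125166467), the enzyme that oxidises glyceraldehyde 3-phosphate, had 1114 and 1187 FPKM in AAV-IL-27 libraries, against 607 and 631 FPKM in AAV-ctrl libraries (0.94 ± 0.049, adjusted p = 1.09e-06). Gapdh was the most abundant of the 33 genes in both groups, so it carried most of the step's sum and weighed most in its 1.63-fold difference. The ratio of group means was 1.86 for Gapdh. For the other reactions of the step it ran from 1.04 for Bpgm and 1.13 for enolase to 1.65 for Pgam1. The annotation holds 90 genes with a stretch nearly identical to a Gapdh transcript (at least 95% over 300 bases). Only 1 of these had a row, the processed pseudogene Gapdh-ps15, with 356 and 309 expected counts in AAV-IL-27 libraries, against 199 and 186 in AAV-ctrl libraries, beside 23470 and 25098 for Gapdh against 12546 and 13019.

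Pgk1, the first ATP-forming enzyme of the pathway, had 121 and 127 FPKM in AAV-IL-27 libraries, against 84.7 and 83.9 FPKM in AAV-ctrl libraries (0.61 ± 0.049, adjusted p = 1.71e-05). Pgam1, phosphoglycerate mutase, had 66.6 and 72.5 FPKM in AAV-IL-27 libraries, against 41.5 and 42.9 FPKM in AAV-ctrl libraries (0.77 ± 0.059, adjusted p = 1.27e-05). Bpgm, the related mutase known for its role in red blood cells, had 11.1 and 12.6 FPKM in AAV-IL-27 libraries, against 11.5 and 11.4 FPKM in AAV-ctrl libraries (0.17 ± 0.096, adjusted p = 0.190), and the groups overlapped in FPKM. Of these mutases, the glycolytic one passed and the other did not, and their difference was not tested.

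Enolase differed least among the glycolytic reactions after uptake that held a called gene. Eno1, the common form, had 206 and 219 FPKM in AAV-IL-27 libraries, against 191 and 179 FPKM in AAV-ctrl libraries (0.25 ± 0.054, adjusted p = 0.00563). With AAV-ctrl replicate 3 left out it missed the threshold (adjusted p = 0.101). Eno3, the muscle form, had 13.4 and 13.0 FPKM in AAV-IL-27 libraries, against 15.3 and 15.2 FPKM in AAV-ctrl libraries (-0.19 ± 0.077, adjusted p = 0.0781). Eno3 passed as lower in only 2 of 13 alternatives, with upper-quartile factors (adjusted p = 0.0325) and with library size alone (adjusted p = 0.0324). Pkm, pyruvate kinase, had 245 and 246 FPKM in AAV-IL-27 libraries, against 161 and 165 FPKM in AAV-ctrl libraries (0.65 ± 0.045, adjusted p = 6.81e-06). The table has 1 row per gene, so the muscle and proliferation-linked splice forms of Pkm were not told apart.

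**Figure D4:**
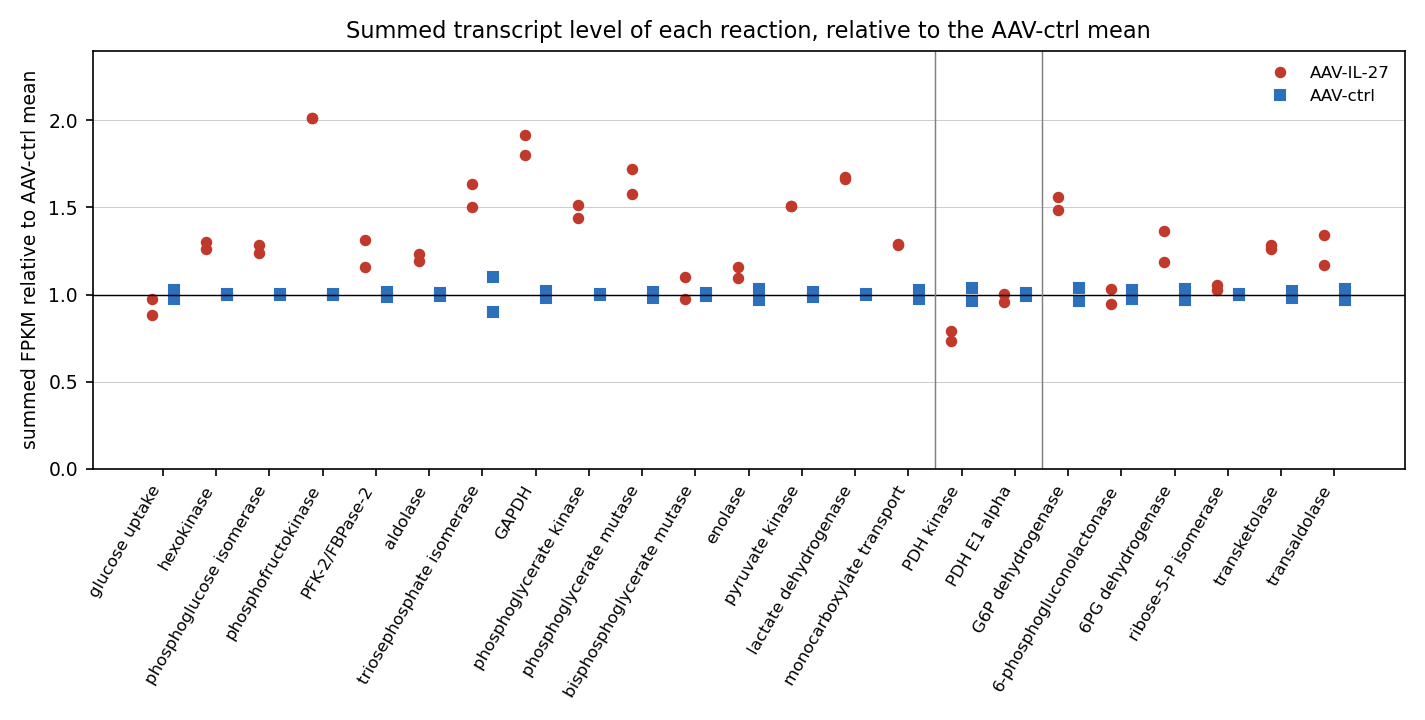
Summed FPKM of each reaction in each library, divided by the AAV-ctrl mean of that reaction, AAV-IL-27 as circles left of AAV-ctrl as squares, with glycolysis and lactate export left of the first grey line, pyruvate entry into mitochondria between the lines and the pentose phosphate branch on the right. Phosphofructokinase has the largest ratio of group means at 2.01, followed by GAPDH at 1.86, while PDH kinase stands at 0.764.

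Lactate dehydrogenase rose in both subunits by like amounts. Ldha (NCBI Gene 16828, chromosome 7, 46842274 to 46855627), the subunit that favours lactate formation, had 283 and 280 FPKM in AAV-IL-27 libraries, against 169 and 168 FPKM in AAV-ctrl libraries (0.79 ± 0.045, adjusted p = 1.98e-06). Ldhb, the subunit typical of heart, had 8.13 and 8.05 FPKM in AAV-IL-27 libraries, against 5.20 and 4.78 FPKM in AAV-ctrl libraries (0.78 ± 0.14, adjusted p = 0.00237). Ldha made up 97.2% of their FPKM in both AAV-IL-27 libraries, and 97.0% and 97.2% in AAV-ctrl libraries, so the groups overlapped in this share.

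The lactate exporters of the Slc16a family were higher. Slc16a3, which encodes MCT4, an exporter of highly glycolytic cells, had the largest fold change of the 33 genes at a low level, with 1.64 and 2.67 FPKM in AAV-IL-27 libraries, against 0.55 and 0.77 FPKM in AAV-ctrl libraries. It rose by 1.79 ± 0.31 (adjusted p = 0.00211), on 65.4 and 107 expected counts in AAV-IL-27 libraries against 20.9 and 29.3 in AAV-ctrl libraries. Replicate 3 exceeded replicate 1 in both groups, as it did for the summed neutrophil markers in AAV-IL-27 and not in AAV-ctrl, and the part of neutrophil transcripts in this gene was not tested. Slc16a1, which encodes MCT1, had 11.5 and 10.5 FPKM in AAV-IL-27 libraries, against 9.37 and 9.68 FPKM in AAV-ctrl libraries (0.26 ± 0.071, adjusted p = 0.0186). Slc16a1 passed in 8 of 13 alternatives, with adjusted p from 0.0110 to 0.446. It did not pass by DESeq2 (adjusted p = 0.116), when scaled to the T cell markers (0.446), or without AAV-IL-27 replicate 1 (0.0837), AAV-ctrl replicate 1 (0.141) or AAV-ctrl replicate 3 (0.0855). Slc16a1 made up 87.5% and 79.7% of the pair's FPKM in AAV-IL-27 libraries, against 94.5% and 92.6% in AAV-ctrl libraries.

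Pdk1 (NCBI Gene 228026, chromosome 2, 71873215 to 71903858) was the only one of the 33 genes that fell. It encodes a kinase that switches off pyruvate dehydrogenase and so holds pyruvate back from mitochondria. Pdk1 had 42.0 and 38.9 FPKM in AAV-IL-27 libraries, against 51.1 and 54.8 FPKM in AAV-ctrl libraries. Both AAV-IL-27 libraries lay below both AAV-ctrl libraries, and its log2 level fell by 0.40 ± 0.055 (adjusted p = 0.000527), with a call in all 13 alternatives. Pdha1, the catalytic subunit gene of pyruvate dehydrogenase, had 42.9 and 45.2 FPKM in AAV-IL-27 libraries, against 44.6 and 45.3 FPKM in AAV-ctrl libraries (0.02 ± 0.051, adjusted p = 0.769). The sign of Pdha1 turned with upper-quartile factors and other scalings.

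In the pentose phosphate branch the NADPH-forming dehydrogenases and the sugar-shuffling enzymes rose, while Pgls and Rpia did not pass. G6pdx, the entry enzyme (NCBI Gene 14381, chromosome X, 74409483 to 74428880), had 32.9 and 34.6 FPKM in AAV-IL-27 libraries, against 21.3 and 23.0 FPKM in AAV-ctrl libraries (0.66 ± 0.062, adjusted p = 4.95e-05). Pgls, the lactonase that follows it, had 56.6 and 51.8 FPKM in AAV-IL-27 libraries, against 56.2 and 53.3 FPKM in AAV-ctrl libraries (0.03 ± 0.072, adjusted p = 0.796), with overlapping groups. Pgd, the next dehydrogenase, had 42.8 and 49.3 FPKM in AAV-IL-27 libraries, against 37.3 and 34.9 FPKM in AAV-ctrl libraries (0.38 ± 0.067, adjusted p = 0.00203). Along the oxidative arm the entry enzyme thus had the largest fold change.

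In the non-oxidative arm, Rpia, which makes ribose 5-phosphate, had 27.2 and 26.4 FPKM in AAV-IL-27 libraries, against 25.8 and 25.6 FPKM in AAV-ctrl libraries (0.11 ± 0.064, adjusted p = 0.216). Tkt, transketolase, had 78.9 and 77.6 FPKM in AAV-IL-27 libraries, against 62.8 and 60.3 FPKM in AAV-ctrl libraries (0.40 ± 0.048, adjusted p = 0.000223). Taldo1, transaldolase, had 120 and 104 FPKM in AAV-IL-27 libraries, against 91.8 and 86.4 FPKM in AAV-ctrl libraries (0.38 ± 0.071, adjusted p = 0.00321), and missed the threshold once AAV-ctrl replicate 3 was left out (adjusted p = 0.0541). Summed over its 6 genes the branch was 1.21-fold higher, less than the 1.63-fold of lower glycolysis, in which Gapdh weighed most. That difference was not tested.

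Hif1a (NCBI Gene 15251, chromosome 12, 73901324 to 73947554), the oxygen-regulated subunit of a transcription factor known to drive glycolysis genes, had 56.1 and 58.9 FPKM in AAV-IL-27 libraries, against 34.3 and 36.7 FPKM in AAV-ctrl libraries. It rose by 0.74 ± 0.052 (adjusted p = 7.30e-06) with no overlap between the groups. Hif1a protein is controlled mainly by its breakdown, which RNA does not report. As examples of genes known as its targets, and not a full list, Pfkp, Pgk1, Ldha and Slc16a3 rose, Slc2a1 did not pass, and Pdk1 fell. Egln3, another known target given below, rose too. The part of Hif1a in any of these changes was not tested.

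Other genes of the same and neighbouring pathways, taken as a wider list, were mostly not called or lower. The list holds other glucose transporters with Txnip, other isoenzymes and side enzymes of glycolysis, and genes of gluconeogenesis. It also holds further pyruvate, lactate and pentose phosphate genes and regulators. Some of these act against glycolysis or uptake, so the counts of this list give no direction for the pathway. Of 72 such genes 68 were in the table and 54 were tested, and 8 rose, 14 fell and 32 did not pass, with a median log2 fold change of 0.00. That is 14.8% higher and 25.9% lower, against 21.3% and 17.7% of all tested genes. Those named next are the 12 with the smallest p among the called genes whose groups did not overlap.

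Hk3, the hexokinase known from myeloid cells, had 8.04 and 6.53 FPKM in AAV-IL-27 libraries, against 2.71 and 3.12 FPKM in AAV-ctrl libraries (1.38 ± 0.13, adjusted p = 4.54e-05), above Hk2 in both groups. Neutrophil markers rose in the same libraries, with replicate 3 above replicate 1 in AAV-IL-27, where Hk3 was lower in replicate 3 than in replicate 1. Their part in Hk3 was not tested. Txnip, which removes glucose transporters from the surface, had 119 and 145 FPKM in AAV-IL-27 libraries, against 196 and 206 FPKM in AAV-ctrl libraries, and fell by 0.56 ± 0.097 (adjusted p = 0.00645).

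The control of pyruvate dehydrogenase changed in its kinases and in its phosphatases. Pdk3 had 19.9 and 19.1 FPKM in AAV-IL-27 libraries, against 13.8 and 13.5 FPKM in AAV-ctrl libraries, and rose by 0.57 ± 0.073 (adjusted p = 0.000323). Pdk2 had 4.44 and 4.17 FPKM in AAV-IL-27 libraries, against 6.56 FPKM in both AAV-ctrl libraries, and fell by 0.56 ± 0.12 (adjusted p = 0.00474), though with an adjusted p = 0.0545 without AAV-ctrl replicate 1 and an adjusted p = 0.0558 without AAV-ctrl replicate 3. The kinases thus went both ways, with Pdk1 and Pdk2 lower and Pdk3 higher. Pdp1 fell by 0.82 ± 0.12 (adjusted p = 0.000642) and Pdp2 by 0.46 ± 0.095 (adjusted p = 0.00441), the phosphatases that switch the enzyme back on. For Pdp2 the call was lost when AAV-ctrl replicate 1 was left out (adjusted p = 0.0715).

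Among lactate transporters and their partners, Slc16a7 (MCT2) fell by 0.96 ± 0.16 (adjusted p = 0.00148). Bsg, the chaperone of MCT1 and MCT4, rose by 0.26 ± 0.050 (adjusted p = 0.00324), though not without AAV-ctrl replicate 3 (adjusted p = 0.0570) or scaled to the T cell markers (adjusted p = 0.372). Emb, the related chaperone, fell by 0.32 ± 0.051 (adjusted p = 0.00107). Of the partners of Hif1a, Arnt, its dimer partner, had 16.9 and 17.8 FPKM in AAV-IL-27 libraries, against 23.4 and 22.9 FPKM in AAV-ctrl libraries, and fell by 0.38 ± 0.053 (adjusted p = 0.000571). Egln3, a prolyl hydroxylase that marks Hif1a protein for breakdown and is itself a known target, rose by 1.26 ± 0.20 (adjusted p = 0.00102). Rptor, a subunit of the mTORC1 kinase complex, fell by 0.36 ± 0.065 (adjusted p = 0.00222).

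**Figure D5:**
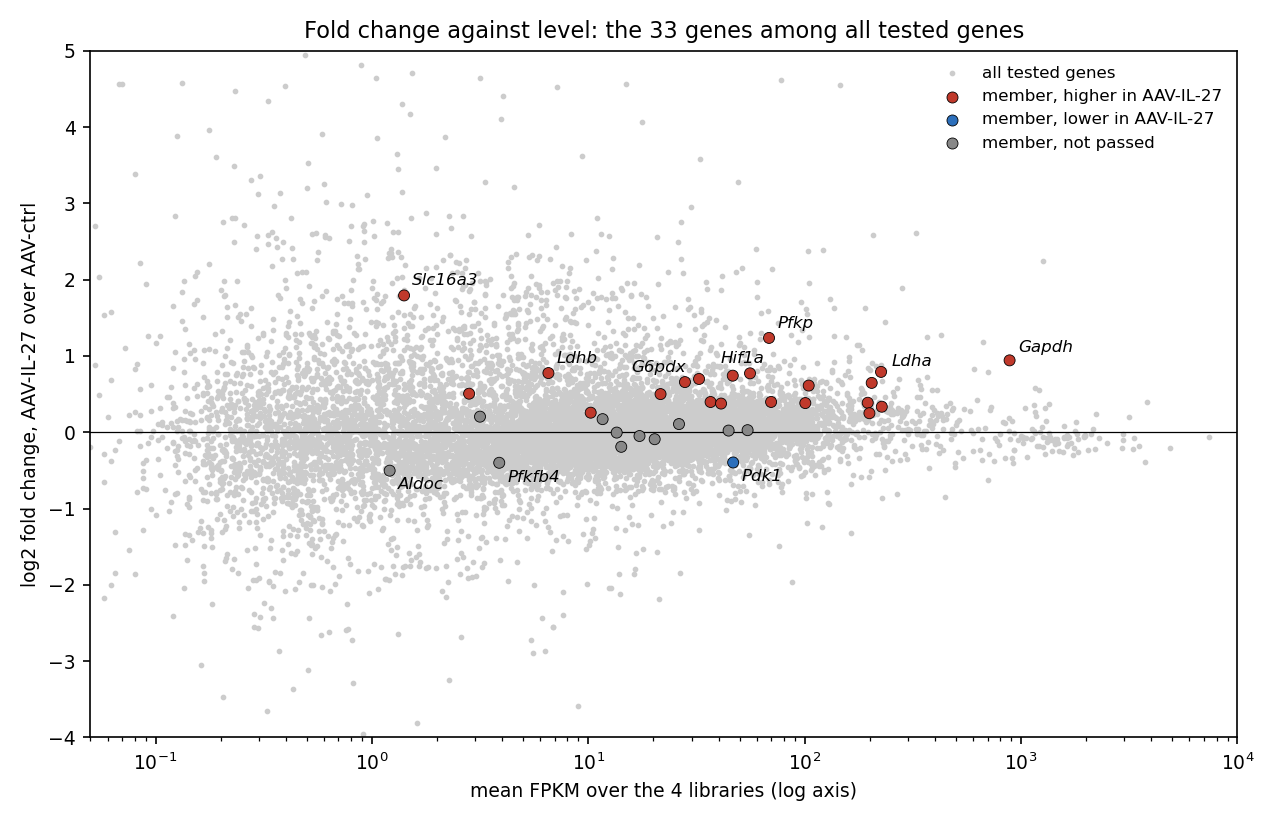
Log2 fold change (AAV-IL-27 over AAV-ctrl) against the mean FPKM over the 4 libraries (log axis) for all 12887 tested genes in grey, with the 33 genes in colour and 45 tested genes outside the axes. Gapdh, Ldha and Pfkp lie among the abundant genes and Slc16a3, with the largest change, among the rare ones, and the changes of the 33 stay between -0.50 and 1.79.

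The order of the levels in AAV-IL-27 libraries began with Gapdh, Ldha, Aldoa, Pkm, Gpi1 and Eno1, and in AAV-ctrl libraries with Gapdh, Aldoa, Eno1, Gpi1, Ldha and Pkm. Aldoa and Pkm, neighbours in AAV-IL-27 at 249 ± 6.43 and 245 ± 0.255 FPKM (SD, n = 2), lay within their spread of each other, and Ldha and Pkm did not overlap in AAV-ctrl at 169 ± 0.658 and 163 ± 2.89 FPKM. Pfkp stood at rank 9 in AAV-IL-27 libraries and at rank 14 in AAV-ctrl libraries. Slc16a3, Aldoc, Pfkfb4, Hk2 and Pfkm had the lowest means in both groups. Libraries of a group were close: the median size of the log2 ratio between replicates over the 33 genes was 0.0895 among AAV-IL-27 libraries and 0.0565 among AAV-ctrl libraries, against 0.106 and 0.0830 over all genes with counts in both libraries of the group. Slc16a3 had the largest such ratio in both groups, at -0.71 between AAV-IL-27 libraries and -0.47 between AAV-ctrl libraries (replicate 1 over replicate 3). Neither replicate was higher throughout, since replicate 1 was the higher for 16 of 33 genes in AAV-IL-27 libraries and for 17 of 33 in AAV-ctrl libraries.

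Scaling mattered for the smaller changes. Scaled to the summed counts of the T cell markers, of which 9 of 17 rose and 2 fell themselves, the median of all genes moved to -0.13, and 14 of the 33 genes rose and 2 fell, against 11.9% and 20.6% of all genes. Under that scaling Hk1, Gpi1, Aldoa, Eno1, Slc16a1, Pgd and Taldo1 did not pass (adjusted p from 0.0529 to 0.446), and the median of the 33 genes was 0.26. TMM gave 2745 higher and 2278 lower among all genes, while upper-quartile factors gave 2362 (18.3%) and 2979 (23.1%), and raw library sizes gave 2363 (18.3%) and 2975 (23.1%). Without AAV-ctrl replicate 1 the counts over all genes were 1646 (12.5%) and 989 (7.5%), and without AAV-ctrl replicate 3 they were 1690 (12.8%) and 1053 (7.97%), with 18 of the 33 genes higher and 1 lower in each case. Without AAV-IL-27 replicate 3, 21 of the 33 rose and 2 fell, beside 20% and 17.1% of all genes. The DESeq2 test gave 20 and 1 of the 33, beside 15.6% and 9.61% of all genes, and a replicate block 21 and 1, beside 21.3% and 17.3%. Some values may include reads of other genes, since no source used here says if reads were counted by strand. An exon of a gene on the other strand that the table lists overlaps Pfkp (Pitrm1), Pfkm (Senp1), Aldoa (Fam57b), Tpi1 (Spsb2), Gapdh (Iffo1), Pdha1 (Map3k15) and G6pdx (Ikbkg). Of these partners Pitrm1 had 18.1 and 19.6 FPKM in AAV-IL-27 libraries, against 21.9 and 21.3 FPKM in AAV-ctrl libraries. Ikbkg had 12.1 and 11.4 FPKM against 13.7 and 13.4 FPKM. Pitrm1 did not pass (log2 fold change -0.15 ± 0.062, adjusted p = 0.0845), and Ikbkg was called lower (-0.17 ± 0.052, adjusted p = 0.0273). Senp1 was called higher, while Pfkm, with an estimate of 0.20, did not pass (adjusted p = 0.267). Senp1 had 19.5 and 19.6 FPKM in AAV-IL-27 libraries, against 16.4 and 17.2 FPKM in AAV-ctrl libraries. Spsb2, Iffo1 and Map3k15 did not pass and Fam57b was under the filter. The part of such reads was not tested. Besides Gapdh, near-identical stretches in other annotated genes, none with a row of its own, were found for Gpi1, Pfkm, Tpi1, Pgk1, Pgam1, Eno1, Pkm, Ldha and Ldhb (1 to 4 genes each), and their counts may be shared.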

How the data were processed

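RNA was sequenced from splenic T cells of 2 AAV-IL-27 and 2 AAV-ctrl mice, 1 library per animal. For each gene and library the authors deposited an expected count, which need not be whole, and a second value that was taken as FPKM. The file headers do not name the unit of that value. It was inferred, since the value per count moved between libraries as the library totals did (1.0194 and 1.0193 for AAV-ctrl replicate 1 against AAV-IL-27 replicate 1, over 6221 genes). Per the submitters' processing notes, RSEM 1.2.12, HISAT2 2.0.4, DESeq2 1.4.5 and Bowtie2 2.2.5 were used with GRCm38.p6, in roles not stated. Group averages were not used.

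Expected counts were rounded, filtered with filterByExpr (12887 of 17039 genes kept), scaled with TMM and compared with edgeR 4.0.16 in R 4.3.3 (quasi-likelihood test, robust, two-sided, no block) with Benjamini-Hochberg adjustment over all tested genes. A log2 fold change above 0 means higher in AAV-IL-27, and its standard error is its size over the square root of F. FPKM are scaled to library size and fold changes by TMM, so the signs can differ for changes near 0. The fit was tested on simulated data. Alternatives included DESeq2 1.42.0 and limma-voom 3.58.1. Genes, lists and naming rule (all 33 members and 12 of a wider list of 72) were chosen with earlier results of these data known. Coordinates and promoters come from RefSeq (GRCm38.p6), near-copies and overlaps from GENCODE of the same build. Slc2a3 had no promoter entry.

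The libraries of a group differed by more than counting noise (chi-square over its degrees of freedom was 6.79 between AAV-IL-27 libraries and 2.55 between AAV-ctrl libraries), and depth (15742476 to 16182426 counts) limits the rarest genes.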

Additional observations from a re-analysis of the deposited data

How the results depend on the processing

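Over 13 alternatives, 18 to 21 of the 33 genes were called higher, except 14 when scaled to the T cell markers. The number called lower was 1, or 2 with upper-quartile factors, with library size alone, scaled to the T cell markers or without AAV-IL-27 replicate 3. Scaled to the T cell markers, 4 genes of upper glycolysis rose and 1 fell, and 2 of the pentose phosphate branch rose. Leaving out 1 library, 0 to 1 genes of upper glycolysis fell. In lower glycolysis 1 gene fell with upper-quartile factors and with library size alone. Of the wider list 3 rose scaled to the T cell markers and 5 rose and 9 fell by DESeq2, and leaving out 1 library 3 to 9 rose and 6 to 13 fell. Over all genes 1529 were higher scaled to the T cell markers and 1239 lower by DESeq2, and leaving out 1 library 1646 to 2632 were higher and 989 to 2254 lower. The cause of these shifts was not tested.

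Signs turned only for genes that did not pass. Pdha1 stood at -0.029 with upper-quartile factors, -0.0284 with library size alone and -0.0965 scaled to the T cell markers, and Pgls at -0.0237, -0.0231 and -0.0975. Rpia stood at -0.0148 scaled to the T cell markers. Leaving out 1 library, Slc2a1 ranged from -0.172 to 0.0824, Pfkl from -0.0944 to 0.0803, Pdha1 from -0.018 to 0.0605 and Pgls from -0.0395 to 0.0909. With expected counts in place of FPKM, the difference in the share of Pfkp was 11.4 percentage points, against 15.0 with FPKM.

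Same-numbered libraries did not deviate together over all genes (correlation -0.0111). Such a value cannot exclude a shared batch or day that acts on some genes, and no label says what the numbers mark. With a replicate block 21 of the 33 genes rose and 1 fell, and 2739 of all genes were higher and 2232 lower. Depth limits Slc16a3, Aldoc and Ldhb most. Each fold change rests on 2 animals per group.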
